A study of Homo sapiens with 16 samples.

Results

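The collagen, laminin and integrin genes were examined for binding of the hypoxia-inducible factors HIF-1α and HIF-2α. A protein-coding gene of the GENCODE annotation on GRCh37 was a member when its symbol had the form of a collagen chain (COL, digits, A, digits), a laminin chain (LAMA, LAMB or LAMC with a digit) or an integrin subunit (ITGA or ITGB with a digit, or ITGAV, ITGAM, ITGAL, ITGAX or ITGAE). This gave 82 of 19794 protein-coding genes, of which 44 were collagens, 12 laminins and 25 integrins. The remaining member, ITGB3BP, is a centromere protein that was matched by its letters, and it had no peak in any library. A ChIP-seq peak was assigned to a gene when the nearest protein-coding start site belonged to that gene and lay within 100000 bp of the peak centre, and 139 of 23398 peaks (0.594%) were assigned to members.

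Peak lists were available for 4 human cancer cell lines, each with 2 replicates per isoform. The lines were A549 (lung), HCT116 (colon), PC3 (prostate) and T47D (breast), and all 16 libraries came from cells kept in 0.5% oxygen for 16 hours, so that no normoxic control was compared. HIF-1α was precipitated with the rabbit antiserum PM14 and HIF-2α with PM9, so isoform and antiserum cannot be told apart. The number of peaks per library ran from 275 to 4505, and read depth is unknown because the lists give no read totals. Of 8 textbook HIF target genes, EGLN3, PDK1, LDHA and ENO1 had a peak in 16 of 16 libraries, ANKRD37 and PFKFB4 in 14, VEGFA in 5 and CA9 in 4. The study's methods describe the replicates as independent, and the labels do not say that they were separate cultures, so p-values measure the spread between these libraries, which may be technical.

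Collagens are the triple-helical proteins of fibrils, networks and filaments in the extracellular matrix, and laminins are the alpha, beta and gamma chain heterotrimers of basement membranes. Integrins are alpha and beta subunit heterodimers in the plasma membrane that bind these matrix proteins outside the cell and the actin or keratin cytoskeleton inside it. HIF is a heterodimer of an oxygen-regulated alpha subunit and HIF-1β, and it binds DNA at the core motif RCGTG (ACGTG or GCGTG). In carcinoma cells the genes of matrix chains and their receptors have been studied for their part in invasion and in attachment to basement membrane.

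All coordinates are on GRCh37. The windows below were taken from its plus strand at the highest-ranked RCGTG-bearing site of 7 of the 13 member genes with a site in both replicates of at least 1 group, a choice made after their values were seen. Each window of 81 bases was centred on the RCGTG copy nearest to the median peak centre. Capitals mark RCGTG read on either strand and the sequence TGACTCA, a core bound by AP-1 factors, which was looked for after the windows had been seen.
ITGB1, chr10:33294650-33294730: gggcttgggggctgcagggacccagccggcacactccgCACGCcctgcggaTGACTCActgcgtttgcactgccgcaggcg
LAMA5, chr20:60936131-60936211: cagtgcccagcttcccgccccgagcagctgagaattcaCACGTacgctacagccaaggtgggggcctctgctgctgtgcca
ITGA5, chr12:54826383-54826463: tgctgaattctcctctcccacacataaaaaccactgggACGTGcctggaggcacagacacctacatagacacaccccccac
ITGB5, chr3:124597789-124597869: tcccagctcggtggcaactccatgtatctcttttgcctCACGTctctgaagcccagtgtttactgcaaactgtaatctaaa
COL16A1, chr1:32180360-32180440: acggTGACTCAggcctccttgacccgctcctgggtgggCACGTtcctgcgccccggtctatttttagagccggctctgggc
COL6A2, chr21:47469653-47469733: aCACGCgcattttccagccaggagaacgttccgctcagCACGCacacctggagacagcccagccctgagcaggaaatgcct
COL6A1, chr21:47394493-47394573: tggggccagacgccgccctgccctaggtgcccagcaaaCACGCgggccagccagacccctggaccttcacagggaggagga

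All 7 windows hold an RCGTG copy by construction, and that at COL6A2 holds 2. The distance from this copy, which was picked as the nearest, to the median peak centre was 0 bp at ITGB1, 18 bp at ITGA5, 21 bp at ITGB5, 45 bp at COL16A1, 54 bp at COL6A2, 201 bp at COL6A1 and 454 bp at LAMA5. TGACTCA stood in the windows of ITGB1 and COL16A1.

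Of the 82 genes, 42 (51.2%) had a peak in at least 1 library, against 38.3% of all protein-coding genes. The members are 0.414% of the genes but hold 0.689% of the bases within 100000 bp of a start. Shares counted per gene do not allow for this. A peak in 2 or more libraries was found at 21 members (25.6%, with 21.5% of all genes) and in 4 or more libraries at 9 members (11%, with 7.58% of all genes). By family, 14 of 25 integrins, 8 of 12 laminins and 20 of 44 collagens had a peak. Integrins held 74 of the 139 peaks, collagens 43 and laminins 22. The 9 recurrent genes were 6 integrins, LAMA5, COL16A1 and COL18A1.

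The integrin beta 1 gene ITGB1, whose product is the partner of most matrix-binding alpha subunits, had a peak in 12 libraries, the most of any member: 6 of HIF-1α and 6 of HIF-2α. Its best peak ranked at percentiles 20.3 and 66.2 in the A549 HIF-1α libraries, where 100 would be the highest score in a library. In A549 HIF-2α the percentiles were 87.0 and 85.0. In HCT116 they were 77.8 and 82.7 for HIF-1α and 39.8 and 86.4 for HIF-2α, and in PC3 66.2 and 2.93 for HIF-1α and 7.17 and 92.4 for HIF-2α. None of the 4 T47D libraries had a peak at ITGB1. The peaks were high in both replicates in A549 HIF-2α and HCT116 HIF-1α, and the replicates of PC3 lay far apart for both isoforms.

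These ITGB1 peaks fell at several sites. The site shared by 8 libraries (chr10:33294010-33295384) was intergenic, 13306 bp upstream of the nearest coding transcript start and 47539 bp upstream of the start of the representative transcript. It was found in both replicates of A549 HIF-1α, A549 HIF-2α and HCT116 HIF-1α. A site 17878 bp upstream of the nearest start (chr10:33298429-33300110) was found in 3 libraries, all of HIF-2α: both A549 replicates at percentiles 87.0 and 85.0, and PC3 replicate 2 at 92.4. It held no copy of RCGTG, and it was in too few libraries for the isoform test. A promoter site (chr10:33246167-33247856), centred 147 bp downstream of the representative start, was found in 4 libraries, 2 of each isoform, and in both replicates of no group.

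LAMA5, the alpha 5 chain of basement membrane laminins, had a peak in 9 libraries, and in each of them at 1 merged intronic site of 5561 bp (chr20:60933100-60938660) centred 6488 bp downstream of the start. In HIF-2α libraries of A549 it ranked at percentiles 94.0 and 95.4. The HIF-2α libraries of HCT116 gave 97.3 and 95.7, and PC3 replicate 2 gave 69.5. For HIF-1α the A549 libraries gave 46.7 and 64.9, HCT116 replicate 3 gave 74.6 and PC3 replicate 2 gave 66.6. In A549 both HIF-2α values lay above both HIF-1α values, and in HCT116 both lay above the single HIF-1α value, since replicate 2 had no peak there. The mean difference over the 4 lines, HIF-1α minus HIF-2α with a missing peak taken as 0, was -24.9 percentile points and did not pass the test (exact permutation of isoform labels within lines, two-sided, p = 0.120, adjusted over all 1421 tested sites, p = 0.185).

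ITGA5, the alpha subunit of the main fibronectin receptor, had a peak in 8 libraries at a single intergenic site (chr12:54825506-54827363), 13384 bp upstream of its start, with GTSF1 the next nearest gene at 39977 bp. The HIF-1α percentiles were 62.4 in A549 replicate 3, 82.7 and 84.2 in the HCT116 libraries, and 89.3 and 97.2 for PC3. The HIF-2α percentiles were 62.7 and 33.8 in A549 and 95.7 in PC3 replicate 2. HCT116 showed the site in both HIF-1α replicates and in neither HIF-2α replicate, whereas A549 showed it in both HIF-2α replicates and in 1 of HIF-1α. The mean difference was 27.96 percentile points towards HIF-1α (exact permutation, two-sided, p = 0.120, adjusted p = 0.185).

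ITGA3, a laminin-binding alpha subunit, had a peak in 7 libraries. Its most shared site was intergenic, 28401 bp upstream of its start, with DLX3 the next nearest gene at 32485 bp. The site was present in 4 HIF-2α libraries at percentiles 47.1 (A549 replicate 3), 83.8 and 53.7 (HCT116) and 66.2 (PC3 replicate 2). The only HIF-1α library with it was HCT116 replicate 3, at 16.0. The HIF-2α values were all above that value, and the difference of -29.4 percentile points did not pass the test (exact permutation, two-sided, p = 0.0833, adjusted p = 0.133).

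**Figure D1:**
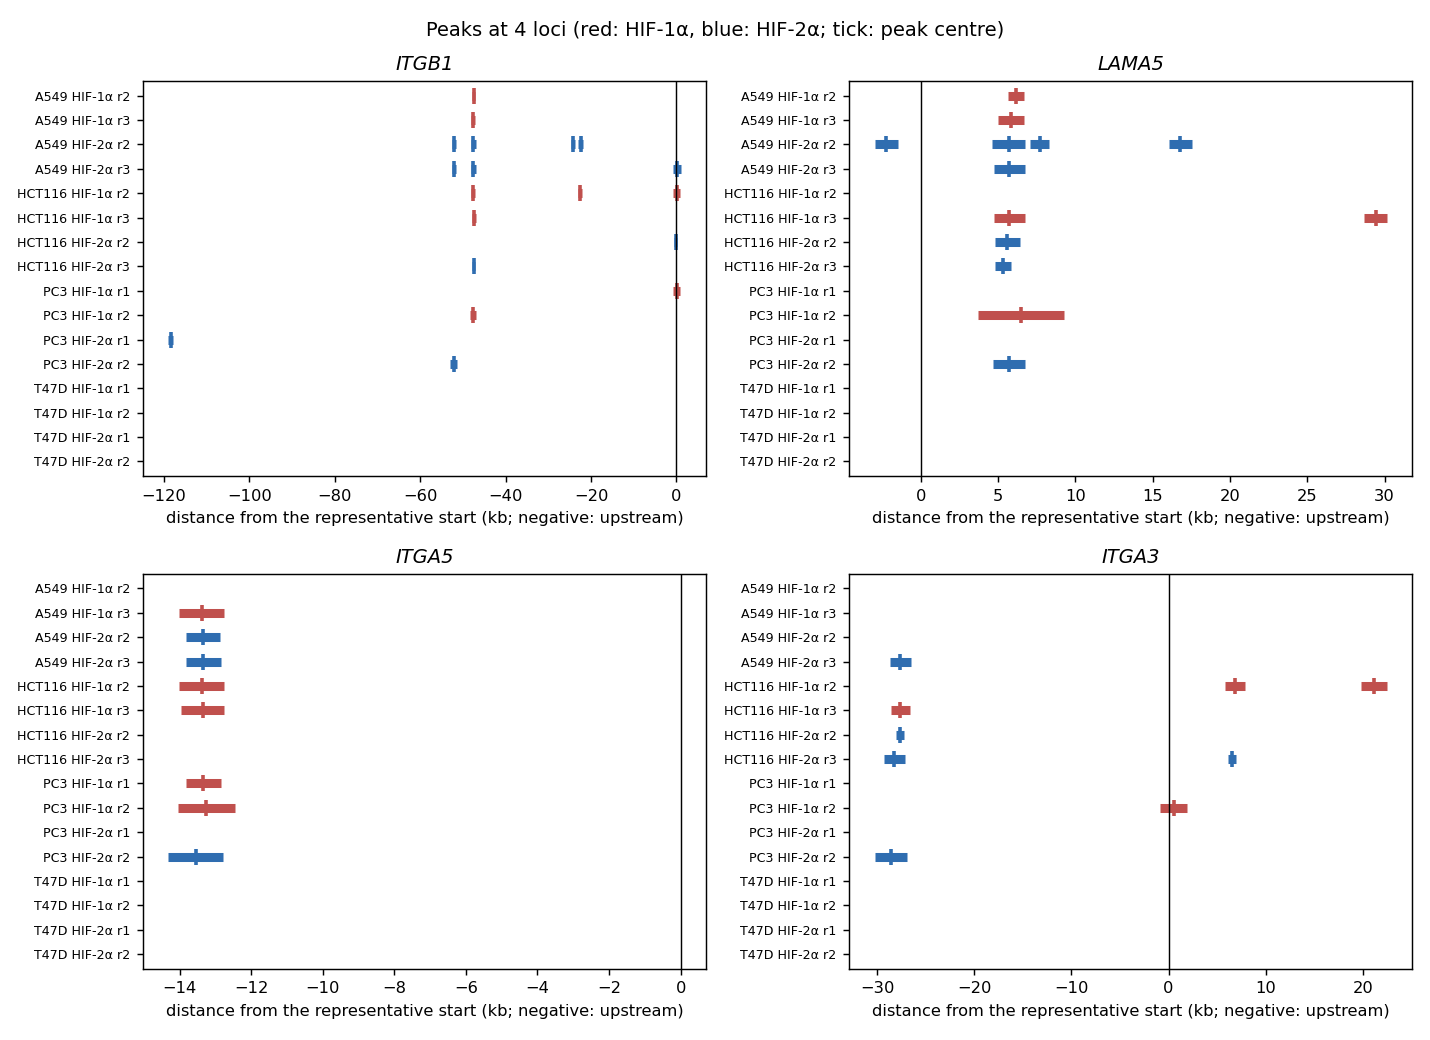
Peaks assigned to ITGB1, LAMA5, ITGA5 and ITGA3 in each of the 16 libraries; bars span the peaks, ticks mark their centres, and the x axis is the distance from the representative start in kb (red, HIF-1α; blue, HIF-2α). ITGA5 has 1 site in 8 libraries, LAMA5 has a shared intronic site in 9 libraries, and no T47D row holds a peak.

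ITGB5, the beta subunit that pairs with the alpha V subunit as a vitronectin receptor, had peaks at different sites for the 2 isoforms. In HCT116 HIF-1α both replicates had an intronic peak at percentiles 50.7 and 48.6 (chr3:124546016-124547162, 59623 bp downstream of the representative start), which A549 HIF-1α replicate 2 also had, at 17. In A549 HIF-2α both replicates had an intronic peak at 92.2 and 90.9 (chr3:124597176-124598486, 8381 bp downstream of the representative start and 265 bp upstream of an alternative one). They also shared another intronic site (chr3:124556205-124557150) at 71.5 and 49.1. None of these 3 sites had peaks of both isoforms.

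Among the other integrins, ITGB4, the hemidesmosome subunit, had a peak in 5 libraries, with best percentiles between 17.5 and 38.1, and in both replicates at no single site. ITGA2, a collagen-binding alpha subunit, had a peak in 4 libraries, from 4.68 in PC3 HIF-1α replicate 2 to 82.1 in PC3 HIF-2α replicate 2, both at the promoter. ITGA1, the other collagen-binding alpha subunit with a peak, had 3 peaks, all of HIF-1α, at 1 site 12198 bp into the gene (percentiles 78.3 and 45.6 in HCT116 and 39.8 in PC3 replicate 2). That site also lies in an untranslated exon of PELO at the same distance from a PELO start, so its assignment between the 2 genes was a tie. ITGAV, at its promoter, and ITGAE, in an intron, had peaks only in the HCT116 HIF-1α libraries, at 73.4 and 38.3 and at 71.0 and 30.0. ITGB2, which encodes the beta subunit of leukocyte integrins, had peaks only in PC3: 18.4 and 84.3 for HIF-1α and 93.8 for HIF-2α replicate 2.

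Among the collagens, COL16A1, a fibril-associated collagen, had 1 intergenic site 10566 bp upstream of its nearest start (chr1:32179572-32181401) in 4 libraries. The percentiles were 79.2 and 47.3 in HCT116 HIF-1α, 55.9 in A549 HIF-1α replicate 3 and 21.7 in A549 HIF-2α replicate 3. COL18A1, the precursor of endostatin, also had a peak in 4 libraries, from 10.1 to 87.6, but in both replicates of no group. COL7A1, the collagen of anchoring fibrils, had a promoter peak in 3 libraries, all of HIF-2α, at 38.9 and 42.9 in A549 and 69.4 in PC3 replicate 2. Its peak centre lay 285 bp upstream of the start.

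COL6A1 and COL6A2 encode chains of the beaded filaments of collagen VI and lie next to each other on chromosome 21. A site between them (chr21:47468718-47470711) was nearly midway, 48312 bp from the COL6A2 start and 48495 bp from that of COL6A1. It was present in both PC3 HIF-1α replicates, at percentiles 76.6 and 95.5, and in PC3 HIF-2α replicate 2 at 92.9, and no other line had it. The 2 HIF-1α peaks were nearer to COL6A2 and the HIF-2α peak nearer to COL6A1, so the gene name at this site turns on a small shift of the peak centre. A separate site 7313 bp upstream of COL6A1 was found in both HCT116 HIF-1α replicates, at 71.9 and 19.9.

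The other named members had peaks in 3 libraries or fewer. LAMC1, the gamma 1 laminin chain, had its promoter peak in HCT116 HIF-1α replicate 3, at 91.6, an intronic peak 70788 bp downstream of the representative start at 25.3 in HCT116 HIF-2α replicate 2, and a peak 9173 bp upstream at 39.7 in T47D HIF-2α replicate 1. The last was the only peak of T47D assigned to any of the 82 genes. COL13A1, COL22A1, COL17A1 and COL6A3 had a peak in 2 libraries each, and LAMA3, LAMB3, COL14A1 and LAMA2 in 1. The 11 fibrillar collagens, the main structural collagens of connective tissue, had 6 peaks in all, each in a single library at a different gene (COL1A1, COL1A2, COL5A1, COL5A2, COL5A3 and COL24A1). Of the 9 network-forming collagens only COL4A4 had an assigned peak. The 17 members with a peak outside the 25 named genes, these 6 fibrillar chains and COL4A4 among them, had 1 peak each, and 40 members had none.

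**Figure D2:**
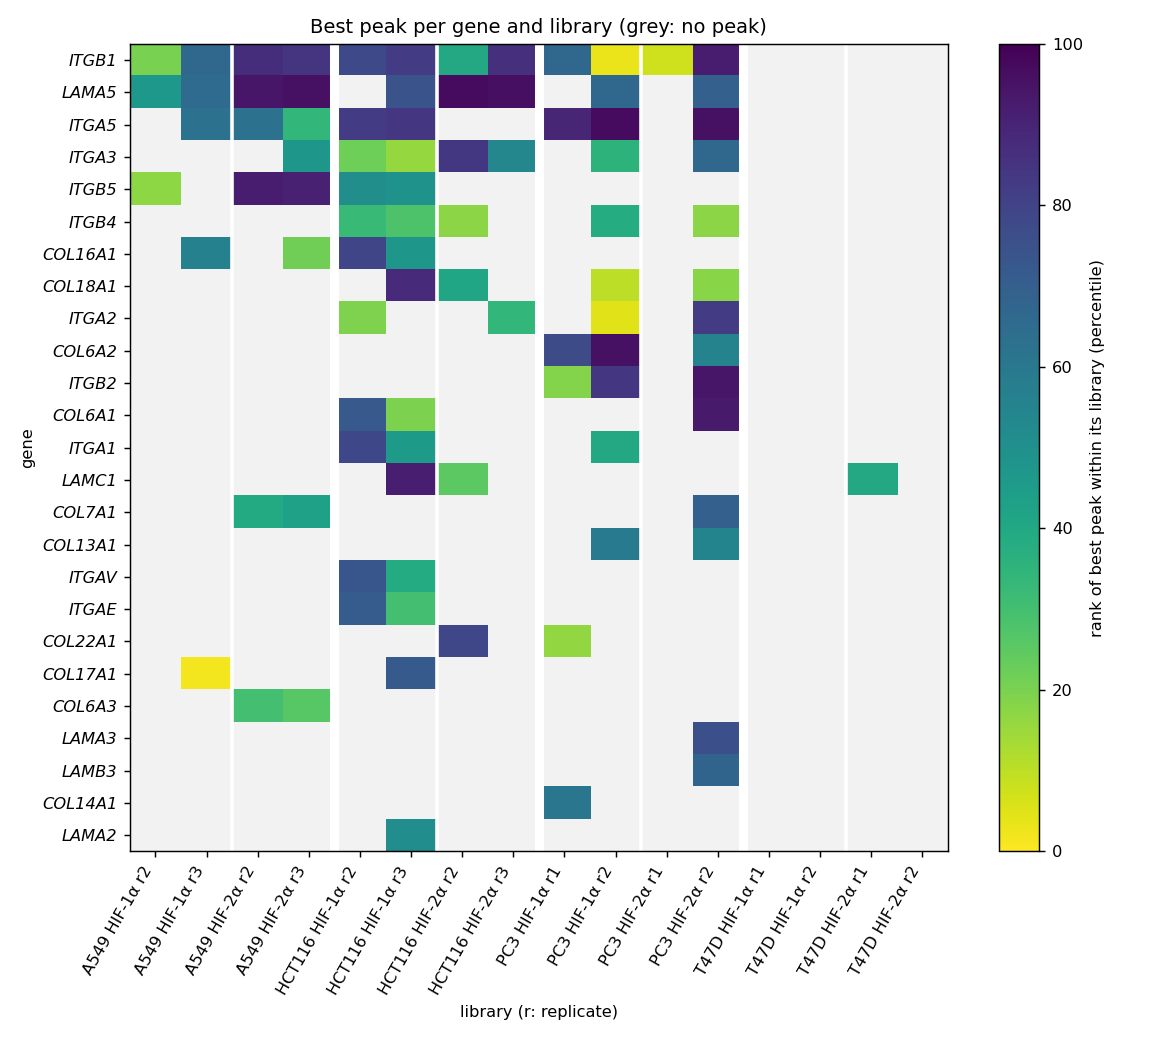
Percentile of the best-scoring peak of each of the 25 named genes (rows) in each of the 16 libraries (columns); grey cells have no peak. ITGB1, LAMA5 and ITGA5 fill 12, 9 and 8 of the 16 columns, and of the T47D columns only 1 holds a peak, at LAMC1.

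The distance limit left out 7 peaks whose nearest start was that of a member. The farthest peaks inside it were at 93639 bp from COL1A2, 84935 bp from ITGA6 and 84156 bp from ITGB1, each in 1 library. Just outside it, COL4A1, an alpha chain of basement membrane collagen IV, was the nearest gene to peaks in 6 libraries between 163042 and 163162 bp away (chr13:110658587-110659344 in HCT116 HIF-1α replicate 3), at percentiles from 31.0 to 64.7. Those libraries covered A549, HCT116 and PC3 and both isoforms. The other peak outside lay 251039 bp from COL22A1, in HCT116 HIF-2α replicate 2.

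A site in both replicates of a group is the stricter measure of presence. By group, 8 of the 82 genes (9.76%) had one in HCT116 HIF-1α, where 11.5% of all genes did. In PC3 HIF-1α it was 3 genes (3.66%) against 4.86%, in A549 HIF-1α 2 (2.44%) against 1.13%, and in T47D HIF-1α 0 against 2.08%. For HIF-2α the A549 count was 5 genes (6.10%), where 2.65% of all genes had one, and the HCT116 count was 2 (2.44%), against 1.44%. PC3 and T47D had 0, against 0.621% and 0.702%. Over all lines, 11 genes (13.4%) had such a site for HIF-1α against 13.5% of all genes, 6 (7.32%) for HIF-2α against 3.98%, and 13 (15.9%) for either isoform against 15.3%. The member counts were close to the background for HIF-1α and for the 2 isoforms together. For HIF-2α the share was above the background, which does not allow for the members' larger share of bases. It rested on 6 genes: COL7A1, ITGA3, ITGA5, ITGB1, ITGB5 and LAMA5. A group with a replicate left out can have no site in both replicates, so the whole group drops out of these counts. Without either A549 HIF-2α replicate the HIF-2α count was thus that of the other groups, 2. Without either HCT116 HIF-1α replicate the HIF-1α count was 5 and that for either isoform 8.

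Merging peaks that overlapped by at least 1 bp across the 16 libraries gave 76 member sites of 11664 in all. Of these, 47 (61.8%) were found in a single library, against 59.5% of all sites, and 6 (7.89%) in 4 or more, against 12.2%. Sites in 2 or more lines numbered 14 (18.4%, with 23.4% of all sites), of which 5 were in 3 lines and 0 in all 4. HIF-1α alone was found at 30 sites (39.5%, with 60.9% of all sites), HIF-2α alone at 27 (35.5%, with 25.2%) and both at 19 (25%, with 13.8%). The isoform test was run on sites in at least 4 libraries, and of the 6 member sites tested, 0 were called (exact permutation, two-sided, Benjamini-Hochberg adjusted over 1421 sites) and 0 had an unadjusted p under 0.05. Over all 1421 sites 10.8% were called higher for HIF-1α and 0.0704% higher for HIF-2α, and 33.1% had an unadjusted p under 0.05.

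The share of a library's peaks that was assigned to the 82 genes was higher for HIF-2α than for HIF-1α. In A549 it was 0.785% (3 of 382 peaks, 95% Wilson interval 0.267 to 2.28) and 0.795% (5 of 629, 0.340 to 1.85) for HIF-1α. For HIF-2α it was 1.16% (16 of 1382, 0.714 to 1.87) and 1.14% (12 of 1056, 0.651 to 1.98). Both HIF-2α libraries of A549 lay above both HIF-1α libraries, with overlapping counting intervals.

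In HCT116 the share was 0.355% (16 of 4505, 0.219 to 0.576) and 0.538% (24 of 4465, 0.361 to 0.799) for HIF-1α. For HIF-2α it was 0.791% (10 of 1264, 0.430 to 1.45) and 0.666% (6 of 901, 0.306 to 1.45). The order was again HIF-2α above HIF-1α in every library of the line.

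In PC3 the HIF-1α shares were 0.593% (9 of 1517, 0.312 to 1.12) and 0.469% (16 of 3413, 0.289 to 0.760). The HIF-2α replicates were at 0.364% (1 of 275, 0.0642 to 2.03) and 1.55% (20 of 1290, 1.01 to 2.38), the lowest and the highest value of this line. In T47D both HIF-1α libraries had 0 peaks, of 761 and 711. Taken as 3 peaks of the total, this allows a share of up to 0.394% and 0.422%, and the upper Wilson limits were 0.502% and 0.537%. The T47D HIF-2α libraries had 1 peak of 423 (0.236%, 0.0417 to 1.33) and 0 of 424. For the latter, 3 peaks of the total would be 0.708%, and the upper Wilson limit was 0.898%. Intervals and limits cover counting error only.

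The mean over lines was 0.442% for HIF-1α and 0.738% for HIF-2α, a difference of -0.296 percentage points (exact permutation of isoform labels within lines, two-sided, p = 0.0185, adjusted over 9 tests, p = 0.0343). In the same exact test, counting only peaks within 10000 bp gave -0.110 percentage points (adjusted p = 0.600), and assigning peaks to the 3 closest genes gave -0.129 (adjusted p = 0.552). Without PC3 HIF-2α replicate 2 the difference was -0.147, without PC3 HIF-2α replicate 1 it was -0.444, and the call was kept only when 1 of 5 libraries was left out: A549 HIF-1α replicate 3, PC3 HIF-2α replicate 1, either T47D HIF-1α replicate or T47D HIF-2α replicate 2.

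For scale, the members held 0.689% of the bases within 100000 bp of their nearest protein-coding start and 0.414% of the genes. Bases within 100000 bp of a start were 57.1% of the genome, whereas the peak shares are percents of all peaks, near a start or not. With these unlike bases the isoform means cannot be placed above or below the members' share of bases. The part of the member peaks held by integrin genes differed between isoforms by -9.24 percentage points, within the spread of the libraries (exact permutation, two-sided, over 3 lines, p = 0.500, adjusted p = 0.500).

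**Figure D3:**
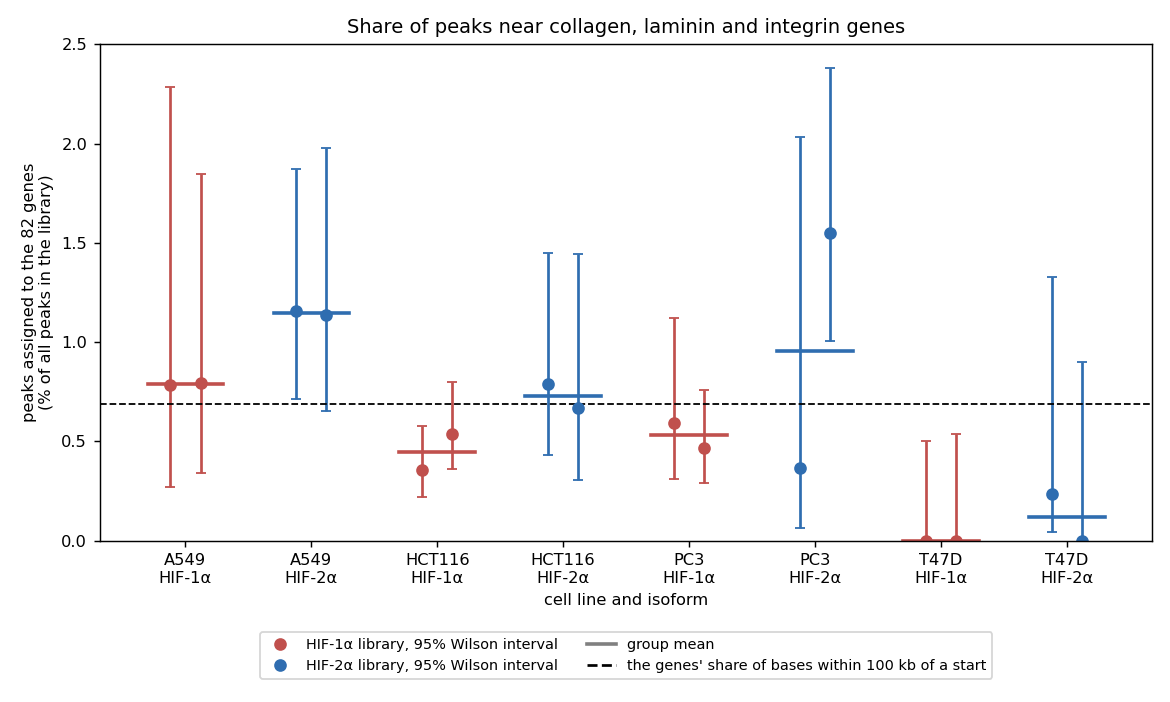
Percent of each library's peaks assigned to the 82 genes, by cell line and isoform; points are libraries with 95% Wilson intervals, short lines are group means, and the dashed line is the members' 0.689% of bases within 100 kb of a start. The dashed line is on an unlike base, since the percents are of all peaks. HIF-2α means lie above HIF-1α means in each line, and the PC3 HIF-2α replicates, at 0.364% and 1.55%, are far apart.

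Between lines, the HIF-1α share fell in the order A549 (0.790% ± 0.00677, SD, n = 2), PC3 (0.531% ± 0.0880), HCT116 (0.446% ± 0.129) and T47D (0 in both libraries). The variance of the line means was larger than under exchange of the libraries between lines (exact permutation, one-sided, p = 0.0190, adjusted p = 0.0343). PC3 and HCT116 overlapped, and A549 lay above and T47D below both. With any line left out, too few arrangements remained for this exact test to pass. That it did not pass without T47D (exact permutation, adjusted p = 0.171) was therefore fixed in advance. The call was lost when only peaks within 10000 bp were counted (exact permutation, adjusted p = 0.600). It was kept when the library left out was A549 HIF-1α replicate 3, either T47D HIF-1α replicate or T47D HIF-2α replicate 2. HIF-2α libraries have no part in this test. Without any of them its unadjusted p was unchanged, and the call moved only through the adjustment with the other tests.

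For HIF-2α the order was A549 (1.15% ± 0.0151, SD, n = 2), PC3 (0.957% ± 0.839), HCT116 (0.729% ± 0.0885) and T47D (0.118% ± 0.167). The line means did not differ beyond the spread of the libraries (exact permutation, one-sided, p = 0.238, adjusted p = 0.268). Without PC3 HIF-2α replicate 1, which had 275 peaks in all, the adjusted p of the exact test was 0.0429.

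Members' peaks lay far from starts for both isoforms: 31 of the 139 (22.3%) were within 1000 bp, 36 between 1000 and 10000 bp and 72 farther away, and 87 were upstream. Of the HIF-1α peaks 20 of 73 were within 1000 bp, and of the HIF-2α peaks 11 of 66. The promoter peaks of HIF-1α included those of ITGAV, LAMC1 and COL18A1 in HCT116, and those of HIF-2α included COL7A1 in A549.

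In HIF-1α libraries the member peaks were farther from starts than the remaining peaks. The median distances were 6357 and 13378 bp for members against 617.5 and 445 bp for the remaining peaks in A549. They were 8751 and 8065.5 bp against 216.5 and 237 bp in HCT116, and 13496 and 2605 bp against 337 and 252 bp in PC3. In HIF-2α libraries they were 10917 and 8081.5 bp against 15769.5 and 12247.5 bp in A549, and 20166 and 20749 bp against 3893 and 4770 bp in HCT116. In PC3 HIF-2α they were 84156 bp (1 peak) and 13761 bp against 12900 and 7934 bp, and in T47D HIF-2α replicate 1 the distance was 9173 bp (1 peak) against 13171 bp. All 6 HIF-1α libraries with a member peak had the larger median at members, whereas both A549 HIF-2α libraries and T47D HIF-2α replicate 1 had the smaller one.

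Over the 7 groups with a member peak the mean difference in log10 distance was 0.71, positive in 5 groups (exact permutation by sign flips, two-sided, p = 0.0625, adjusted p = 0.0804), so it did not pass the test. A comparison added after these values were seen set this difference against itself between isoforms. It was larger for HIF-1α than for HIF-2α by 1.04 log10 units over 3 lines (exact permutation, two-sided, p = 0.00926, unadjusted, the smallest value that the test can give over 3 lines). In these lines the remaining peaks had medians of 216.5 to 617.5 bp for HIF-1α and 3893 to 15769.5 bp for HIF-2α. The positive sign came from these remaining peaks. The member peaks themselves differed less and the other way. The difference in their log10 median distance, HIF-1α minus HIF-2α, was -0.37 (exact permutation, two-sided, p = 0.0556, adjusted p = 0.0804). The exact permutation test of this last difference had an adjusted p of 0.0469 without A549 HIF-1α replicate 3, and its sign was turned by a stricter score threshold (0.11, adjusted p = 0.629).

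**Figure D4:**
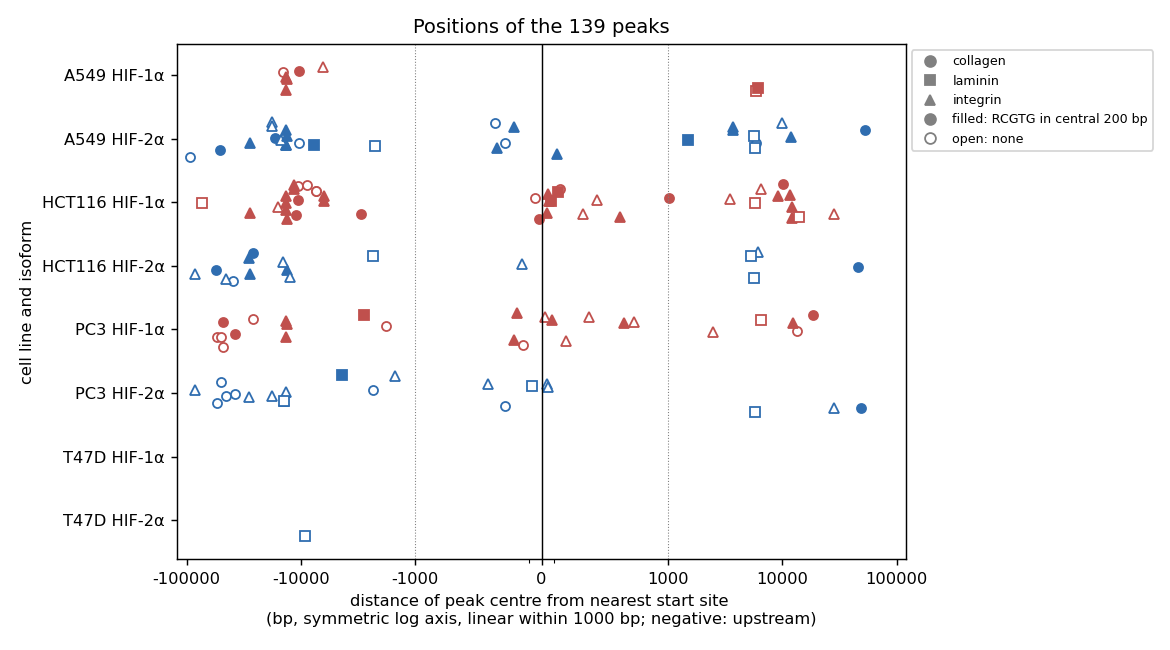
Signed distance of each of the 139 member peaks from the nearest start (bp, symmetric log axis, linear within 1000 bp) by cell line and isoform; shapes give the family, and filled symbols have RCGTG in the central 200 bp. A column of integrin peaks, those of ITGB1 and ITGA5, stands beyond 10000 bp upstream in A549, HCT116 and PC3.

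RCGTG was present in the central 200 bp of 65 of the 139 member peaks (46.8%), against 60.0% of the remaining 23230 peaks on the main chromosomes. For HIF-1α it was 41 of 73 (56.2%, against 62.4% of the remaining peaks), and for HIF-2α 24 of 66 (36.4%, against 54.4%). By line the HIF-2α members with RCGTG were 16 of 28 (A549), 6 of 16 (HCT116) and 2 of 21 (PC3), and the HIF-1α members 5 of 8, 24 of 40 and 12 of 25. PC3 HIF-2α had the lowest share of these, 9.52%, where 49.4% of its remaining peaks held the motif in the central 200 bp. Its 2 member peaks with RCGTG in that window were those at LAMB3 and COL6A1. Over their whole length most of its member peaks held RCGTG, as at ITGA5 in replicate 2 (5 copies, 0 of them central).

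The mean of library shares was 25.6 percentage points higher for HIF-1α than for HIF-2α over 3 lines (exact permutation, two-sided, p = 0.0185, adjusted p = 0.0343). The remaining peaks differed the same way by 10.7 points (exact permutation, p = 0.00926, the smallest possible), and the excess at members over the remaining peaks, 14.9 points, did not pass (exact permutation, p = 0.0648). Both of these comparisons were added after the data were seen and are two-sided and unadjusted. With the libraries of fewer than 3 member peaks left out the member difference was 23.96 points (exact permutation, adjusted p = 0.0833). Without PC3 it was 14.9 (exact permutation, adjusted p = 0.167), where 2 lines left too few arrangements for the test to pass. With RCGTG looked for in the whole peak it was 11.6 points (exact permutation, adjusted p = 0.05). The call was kept when the library left out was A549 HIF-1α replicate 3, either T47D HIF-1α replicate or T47D HIF-2α replicate 2. T47D libraries have no part in this test, and without any of them only the adjustment with the other tests moved.

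TGACTCA, counted on both strands in the same windows and with no test, was in 28 of 139 member peaks (20.1%) and 8.08% of the remaining peaks. It was in 12 of 73 HIF-1α member peaks (16.4%, against 5.14% of the remaining peaks) and in 16 of 66 HIF-2α member peaks (24.2%, against 15.0%). Both motifs were in 16 of the 139 windows. A549 HIF-2α replicate 2 had the most, 9 of 16, against 23.7% of its remaining peaks, and replicate 3 had 2 of 12 against 16.7%. Peaks of several libraries at 1 locus share the sequence, as at ITGB1, so these counts are not independent. Over whole merged sites, RCGTG was found at 71 of the 76 and TGACTCA at 28.

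Member peaks were less often shared between replicates than the remaining peaks of the same library. In HCT116 HIF-1α 8 of 16 and 8 of 24 overlapped a peak of the other replicate against 55.9% and 56.5% of the remaining peaks. In PC3 HIF-1α it was 3 of 9 and 3 of 16 against 70.6% and 31.2%, and in PC3 HIF-2α 0 of 1 and 0 of 20 against 56.8% and 12.1%. In A549 it was 2 of 3 and 2 of 5 for HIF-1α against 66.8% and 40.1%, and 7 of 16 and 7 of 12 for HIF-2α against 56.1% and 73.6%. In HCT116 HIF-2α it was 2 of 10 and 2 of 6 against 27.9% and 38.9%. The member value was the lower one in each of these libraries, by under 1 percentage point in A549 HIF-1α.

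The mean difference over 7 groups was -19.7 percentage points, negative in 7 of 7 (exact permutation by sign flips, two-sided, p = 0.0156, the smallest possible; adjusted p = 0.0343). T47D HIF-2α, not listed above, entered as a group with 1 member peak, in replicate 1 (0 of 1 against 43.2%). It had the largest deviation of the 7 groups. Without T47D the difference was -15.7 (exact permutation, adjusted p = 0.0833). With libraries of fewer than 3 member peaks left out it was -12.0 (exact permutation, adjusted p = 0.0833), and with 1 start site per gene it was -10.6 (adjusted p = 0.309). Leaving out a library of these groups took its whole group out of this test. The unadjusted p was then 0.03125 each time, the smallest that 6 groups can give (exact permutation by sign flips). The call was kept when A549 HIF-1α replicate 3 or either T47D HIF-1α replicate was left out and lost when any 1 of the other 13 libraries was. T47D HIF-1α had no part in this test, and for the other libraries the call turned only on the adjustment with the other tests.

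Member peaks also ranked lower by score within their library. The mean difference was -7.53 percentile points, negative in 7 of 7 groups (exact permutation by sign flips, two-sided, p = 0.0156, adjusted p = 0.0343). Members ranked higher in 3 single libraries: A549 HIF-1α replicate 3 (12.6), PC3 HIF-1α replicate 1 (10.8) and PC3 HIF-2α replicate 2 (17.2). The difference rested on libraries with few member peaks. Without those of fewer than 3 the difference was -2.03 (exact permutation, adjusted p = 0.738), without PC3 HIF-2α replicate 1 it was -3.23 (adjusted p = 0.439), and without A549 HIF-1α replicate 2 it was -4.47 (adjusted p = 0.268). Without PC3 HIF-2α replicate 2 it was -11.8 (exact permutation, p = 0.0156, adjusted p = 0.0571), where only the adjustment with the other tests moved. The call was kept only when A549 HIF-1α replicate 3, a T47D HIF-1α replicate or T47D HIF-2α replicate 2 was left out. The best peak per gene and library ranked from 1.83 (COL17A1 in A549 HIF-1α replicate 3) to 97.3 (LAMA5 in HCT116 HIF-2α replicate 2).

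**Figure D5:**
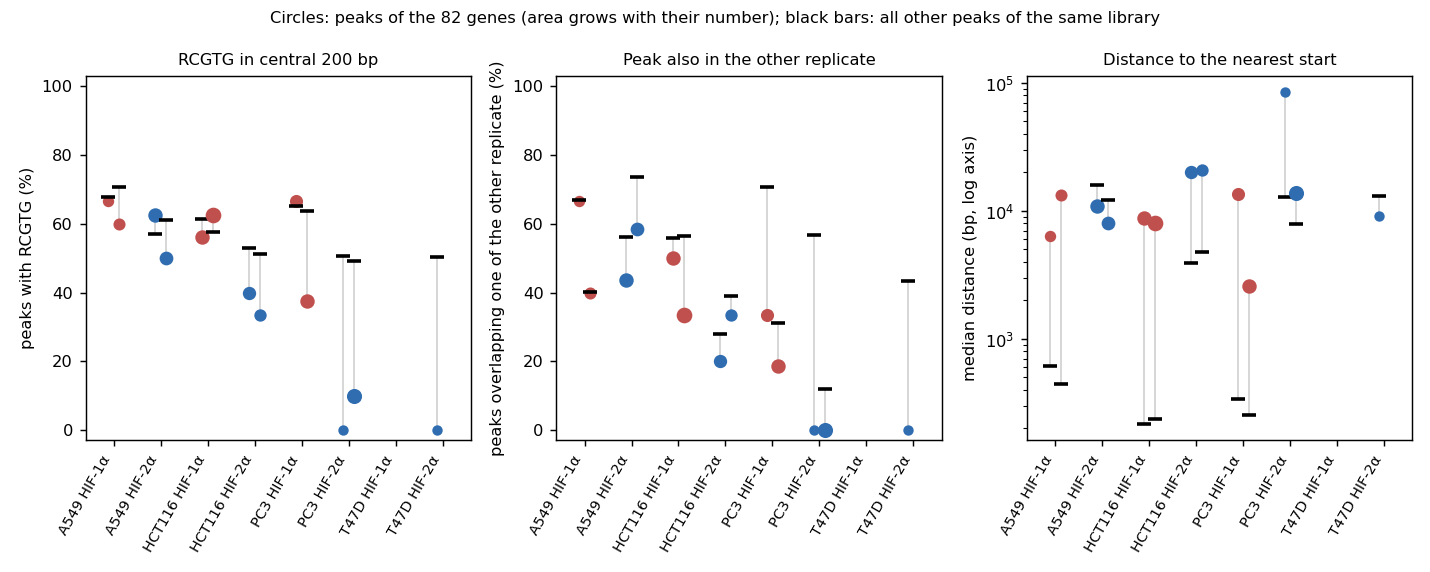
Member peaks (circles, red HIF-1α and blue HIF-2α, area growing with their number) and all remaining peaks (black bars) of the same library: percent with RCGTG in the central 200 bp, percent overlapping a peak of the other replicate, and median distance to the nearest start in bp on a log axis. Circles lie at or below the bars in the second panel, and in the third panel they lie above the bars in every HIF-1α library shown.

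Genes that act with these families were counted from a list of 25 matrix and adhesion genes. A peak was found at 16 of them (64%, with 38.3% of all genes), and 6 had a site in both replicates of a group (24%, with 15.3%), 5 for HIF-1α and 1 for HIF-2α. Those of HIF-1α were the basement membrane proteoglycans HSPG2 and AGRN, the laminin receptor DAG1 (dystroglycan), the focal adhesion kinase gene PTK2 and the cytoskeletal linker TLN2, which had a peak in 5 libraries, all of HIF-1α. The gene with HIF-2α was PXN, which encodes the adhesion scaffold paxillin, with a peak in 3 HIF-2α libraries and 1 of HIF-1α. The shares of this list, 20% for HIF-1α and 4% for HIF-2α, stood beside 13.5% and 3.98% of all genes.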

How the data were processed

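ChIP-seq peak lists of HIF-1α and HIF-2α were used for 16 libraries in 8 groups of cell line and isoform, taken from the labels, and the columns used were position and score. The authors trimmed reads (Trim Galore 0.3.3), aligned them to GRCh37 with BWA 0.7.5a-r405, filtered them with SAMtools 0.1.19, bedtools 2.17.0 and Picard 2.0.1, and deposited 1 peak list per library, for which the processing notes name MACS. The study's methods describe calling with both T-PIC and MACS and a further filter against background regions, and whether the deposited lists passed these steps is not given in the sources used here. The score deposited by the authors is the peak caller's own, starts near 50 in every list and has no stated scale or MACS version. It was used only to rank peaks within a library.

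Start sites were those of all protein-coding transcripts of GENCODE release 44 lifted to GRCh37. The representative transcript, 1 per gene, gave exon and intron positions. Of 23398 peaks, 29 lay off chromosomes 1 to 22, X and Y and stayed out of the assignment. Percentiles rank scores within a library. Tests were exact permutations (Python 3.11.15, numpy 2.4.6, scipy 1.17.1, pysam 0.24.0), checked on simulated data, with Benjamini-Hochberg adjustment over 9 tests or over all tested sites at 0.05. The smallest p was 0.00154 with 4 lines, 0.00926 with 3, 0.00952 between lines and 0.0156 by sign flips. Members and gene lists were chosen with earlier results of these data known. The 25 named genes were those with peaks in the most libraries, ties going to the higher mean percentile. The sequence of 1 site is not reported here.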

Additional observations from a re-analysis of the deposited data

Results flagged for a closer look

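ITGB5 moved in opposite directions in 2 cell lines. Its best percentile was higher for HIF-1α in HCT116 (50.7 and 48.6, with no HIF-2α peak) and higher for HIF-2α in A549 (92.2 and 90.9, against 17 and no peak for HIF-1α), and the mean over lines, HIF-1α minus HIF-2α, was -8.35 percentile points. The difference between the lines was not tested, and the peaks of the 2 isoforms were at different intronic sites.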

How the results depend on the processing

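Member peaks per library were few, from 0 to 24, and no read totals were given, so an absent peak is a peak below the caller's threshold at unknown depth. Of the 5 tests that passed, the 4 with a sign kept it under every alternative run, and each of the 5 lost its call under most alternatives. Counts of member sites called by isoform were 0 under every alternative run. Leaving out ITGB3BP changed no value.

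With scores at or above the median of all peaks, the isoform difference in share was -0.335 percentage points, in RCGTG 21.6 points, the variance between lines for HIF-1α 0.0714, the rank difference -1.48 and the replication difference -20.7, none past the threshold. The isoform difference in log10 distance turned to 0.11, and genes with a site in both replicates numbered 3 for HIF-1α and 6 for either isoform. With the best 272 peaks of each list RCGTG covered only 2 lines, too few for its test to pass. The values were then -0.551, 53.3, 0.144, -10.4 and -19.3, none past the threshold, and the genes 2 for HIF-1α, 3 for HIF-2α and 4 for either. With 1 start site per gene they were -0.296, 30.4, 0.107, -2.74 and -10.6, none past the threshold (lowest adjusted p 0.0571). Within 10000 bp they were -0.110, 19.8, 0.0213, -2.64 and -12.5, none past the threshold, the integrin difference turned to 6.28 points, and the genes were 5, 3 and 6. With the 3 closest genes the share difference was -0.129 and the variance 0.0828, neither past the threshold, and the genes were 26, 11 and 26. With RCGTG counted in the whole peak its difference was 11.6 points and kept its call. With a peak in either replicate the genes were 30, 27 and 42, and with a reciprocal overlap of 50% the replication difference was -16.5 (exact permutation, adjusted p = 0.0563). With at least 3 member peaks per library, chosen after seeing the data, RCGTG gave 23.96, rank -2.03 and replication -12.0, none past the threshold.

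Leaving out a cell line ended each of these calls. Without A549 the values were -0.275, 34.9, 0.0814, -8.04 and -24.8, with 2 genes for HIF-2α. Without HCT116 they were -0.300, 27.1, 0.162, -7.23 and -23.3, with 5 genes for HIF-1α and 7 for either isoform. Without PC3 they were -0.252, 14.9, 0.157, -7.89 and -15.7, and without T47D -0.355, 25.6, 0.0321, -7.05 and -15.7. Fewer lines leave fewer arrangements for the tests. The RCGTG test lost no arrangements without T47D, which had no part in it. Without T47D its p was unchanged (exact permutation, two-sided, p = 0.0185), and only the adjustment with the other tests moved (adjusted p = 0.0833).

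Leaving out 1 library at a time moved the share difference between -0.444 and -0.147, the RCGTG difference between 20.8 and 30.5, the HIF-1α variance between 0.105 and 0.113, the HIF-2α variance between 0.155 and 0.375, the rank difference between -11.8 and -3.23, the replication difference between -22.9 and -15.7 and the log10 distance difference between -0.51 and -0.24. Genes with a site in both replicates ran from 5 to 11 for HIF-1α, 2 to 6 for HIF-2α and 8 to 13 for either, where the whole group of the library left out dropped out of the count.

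Replicate numbers are shared between isoforms in each line, but same-numbered libraries did not deviate together in every line (correlations of 0.106 for A549, 0.0162 for HCT116, -0.0244 for PC3 and 0.0114 for T47D), so they were not treated as pairs. With a replicate block the share difference was -0.296 (exact permutation, adjusted p = 0.0844) and the RCGTG difference 25.6 (adjusted p = 0.0703), where fewer arrangements remain. Why the other values moved was not tested.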
